A study of Mus musculus with 23 samples.

Results

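Dendritic spines take their shape from actin filaments, and 38 genes that build, cut, branch or bundle those filaments in spines were followed here through the mouse hippocampus. The genes were chosen by name, from what their proteins are known to do, though with earlier results of these data known. All 38 were found among the 55335 genes of the deposited count table, and all 38 had enough counts to be tested in every comparison. Hippocampal RNA from 23 female mice was sequenced as 1 library a mouse, in 6 groups. Of the mice of 8 months, which were not treated, 4 were wild type (WT-8M) and 4 were 3xTg (3xTg-8M). The mice of 10 months had received the stearoyl-CoA desaturase inhibitor ab142089 (SCDi) at 80 µM, or its vehicle with 0.8% DMSO, into the lateral ventricle for 28 days. The letter D marks the vehicle, given to 4 WT mice (WT-D) and 4 3xTg mice (3xTg-D). The letter S marks SCDi, given to 3 WT mice (WT-S) and 4 3xTg mice (3xTg-S). The 3xTg mouse models familial Alzheimer's disease. It carries human APPSwe and tauP301L transgenes, which a mouse Thy1.2 regulatory element drives in neurons, in mice whose own presenilin gene was replaced by a PS1 M146V knock-in. The WT mice were a C57BL/6J by 129S1 hybrid bought as strain controls, so that differences between the strains cannot be told apart from differences between the backgrounds. Age and treatment cannot be told apart between the 8-month and the 10-month groups, and these were not compared.

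A dendritic spine is a small protrusion that carries most excitatory synapses of hippocampal pyramidal neurons, and its head is filled with branched actin filaments that turn over quickly. Monomers of actin are delivered by profilin and strung together by formins such as Fmn2, and cofilin and gelsolin cut old filaments so that their monomers can be used again. LIM kinases switch cofilin off by phosphorylation and the phosphatase slingshot (Ssh1) switches it on. The GTPases Rac1 and Cdc42 are loaded with GTP by exchange factors such as Tiam1 and kalirin. They act through Pak kinases and through the WAVE and N-WASP proteins, which turn on the Arp2/3 complex, the machine that nucleates a new filament as a branch on an old one. Drebrin, neurabin, spinophilin and synaptopodin bind the finished filaments in the spine head and neck. These genes are used in other cell types as well, and in bulk tissue fewer cells of a type and less RNA per cell cannot be told apart.

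The starts of the 5 genes that passed the test in a comparison of the strains are shown, so that the promoters of genes that differed in the same direction can be set side by side. Each line gives the 250 bases before the most upstream RefSeq start, 5′ to 3′ on the gene's strand, in GRCm38.p6. Capitals mark GC boxes, the only motif of those searched that these 5 stretches hold. Ssh1 lies at chr5:113993791-113994040 on the minus strand, Tiam1 at chr16:89974700-89974949 on the minus strand, Git1 at chr11:77493038-77493287 on the plus strand, Cyfip2 at chr11:46312359-46312608 on the minus strand and Arpc3 at chr5:122391628-122391877 on the plus strand.
Ssh1: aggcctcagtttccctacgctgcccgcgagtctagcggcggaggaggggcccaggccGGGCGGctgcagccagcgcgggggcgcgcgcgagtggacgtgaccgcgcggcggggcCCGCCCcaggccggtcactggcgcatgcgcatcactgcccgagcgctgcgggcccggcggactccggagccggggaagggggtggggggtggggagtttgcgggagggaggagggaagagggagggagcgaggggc
Tiam1: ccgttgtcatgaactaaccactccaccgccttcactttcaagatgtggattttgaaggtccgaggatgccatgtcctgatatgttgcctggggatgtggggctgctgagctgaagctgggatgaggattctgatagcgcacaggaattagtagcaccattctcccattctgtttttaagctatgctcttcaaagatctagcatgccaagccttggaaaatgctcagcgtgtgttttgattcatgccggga
Git1: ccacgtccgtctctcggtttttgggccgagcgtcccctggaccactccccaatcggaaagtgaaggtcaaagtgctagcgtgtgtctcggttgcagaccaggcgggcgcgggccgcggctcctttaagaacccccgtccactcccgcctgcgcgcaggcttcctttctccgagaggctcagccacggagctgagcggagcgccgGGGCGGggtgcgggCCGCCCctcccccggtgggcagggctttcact
Cyfip2: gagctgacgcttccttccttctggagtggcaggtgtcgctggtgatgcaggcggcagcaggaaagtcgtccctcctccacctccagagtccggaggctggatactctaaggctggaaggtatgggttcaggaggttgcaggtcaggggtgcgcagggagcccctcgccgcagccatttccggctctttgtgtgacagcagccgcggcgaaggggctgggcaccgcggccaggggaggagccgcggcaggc
Arpc3: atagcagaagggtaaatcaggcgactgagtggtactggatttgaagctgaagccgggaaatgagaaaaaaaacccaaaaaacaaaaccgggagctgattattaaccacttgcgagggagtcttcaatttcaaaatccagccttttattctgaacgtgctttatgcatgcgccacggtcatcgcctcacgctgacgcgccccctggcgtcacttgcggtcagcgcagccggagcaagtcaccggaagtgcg
For 3 motifs both strands were searched. The GC box GGGCGG, which Sp1 binds, stood in 32.7% of the 32851 promoters in the table and in 29 of the 44 listed for 30 of the 38 genes. It was found 193 and 136 bases before the start of Ssh1 and 46 and 32 bases before the start of Git1, and not in the stretches of Tiam1, Cyfip2 and Arpc3. The RefSeq start of Git1 was not found near the start of a Gencode transcript. The stretches of Tiam1 and Cyfip2 lie inside their annotated genes (89787111 to 90143769 and 46193850 to 46312859). That of Ssh1 lies partly inside its gene (113937094 to 113993894). For these genes starts further upstream are therefore annotated, and which start was in use was not tested. The CArG box, through which serum response factor is known to act on actin genes, stood in 1.47% of all promoters and, of the 44, in that of Actg1 alone. The cyclic AMP response element TGACGTCA stood in 1.55% of all promoters and in those of Arhgef7 and Pak1. The stretches of Ssh1, Git1 and Cyfip2 were rich in G and C, at 77.6%, 68.8% and 66.4%, and those of Arpc3 and Tiam1 held 51.2% and 48.4%. A match is a description of the letters and no evidence of binding.

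Counts assigned to genes summed to between 12.8 and 36.7 M a library at 8 months and between 13.0 and 17.6 M at 10 months. Leaving out Actg1, a member held between 313 and 42054 counts in a library. Levels are given as CPM, a gene's count per M counts of its library, scaled within each age, and levels of different genes were compared only per kilobase of transcript (RPKM). The summed level of 8 markers of hippocampal subfields lay between 758.6 and 1025 CPM in all 23 libraries. In WT-D the actin monomer gene Actb stood far above all others, at 602 ± 45.9 RPKM (SD, n = 4). Pfn2, the profilin of neurons, followed at 272 ± 24.8 RPKM and Cfl1, the main cofilin, at 252 ± 6.94 RPKM, and these 2 did not differ beyond their spread. Then came Nckap1 at 236 ± 10.1 RPKM and Arpc2 at 217 ± 10.9 RPKM, subunits of the WAVE regulatory complex and of Arp2/3. The scaffold Ppp1r9b (spinophilin) and the WAVE subunit Cyfip2 had 187 ± 9.48 and 151 ± 5.92 RPKM. Several regulators were far lower per length. The exchange factor Tiam1 had 19.0 ± 1.76 RPKM, the kinases Limk1 and Rock1 had 9.36 ± 0.818 and 7.07 ± 0.536, and the phosphatase Ssh1 had 3.56 ± 0.348 RPKM. Within families one gene led. Pfn2 exceeded Pfn1 (112 ± 5.18 RPKM), Cfl1 exceeded Cfl2 (28.3 ± 2.65), Cyfip2 exceeded Cyfip1 (25.2 ± 0.672) and Rock2 (44.5 ± 3.15) exceeded Rock1, each by far more than the spread. Actg1, the other cytoplasmic actin, was listed with only 13 to 49 counts a library, or 0.803 ± 0.0376 RPKM in WT-D. The cause was not tested, and its level is not compared with that of Actb.

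**Figure D1:**
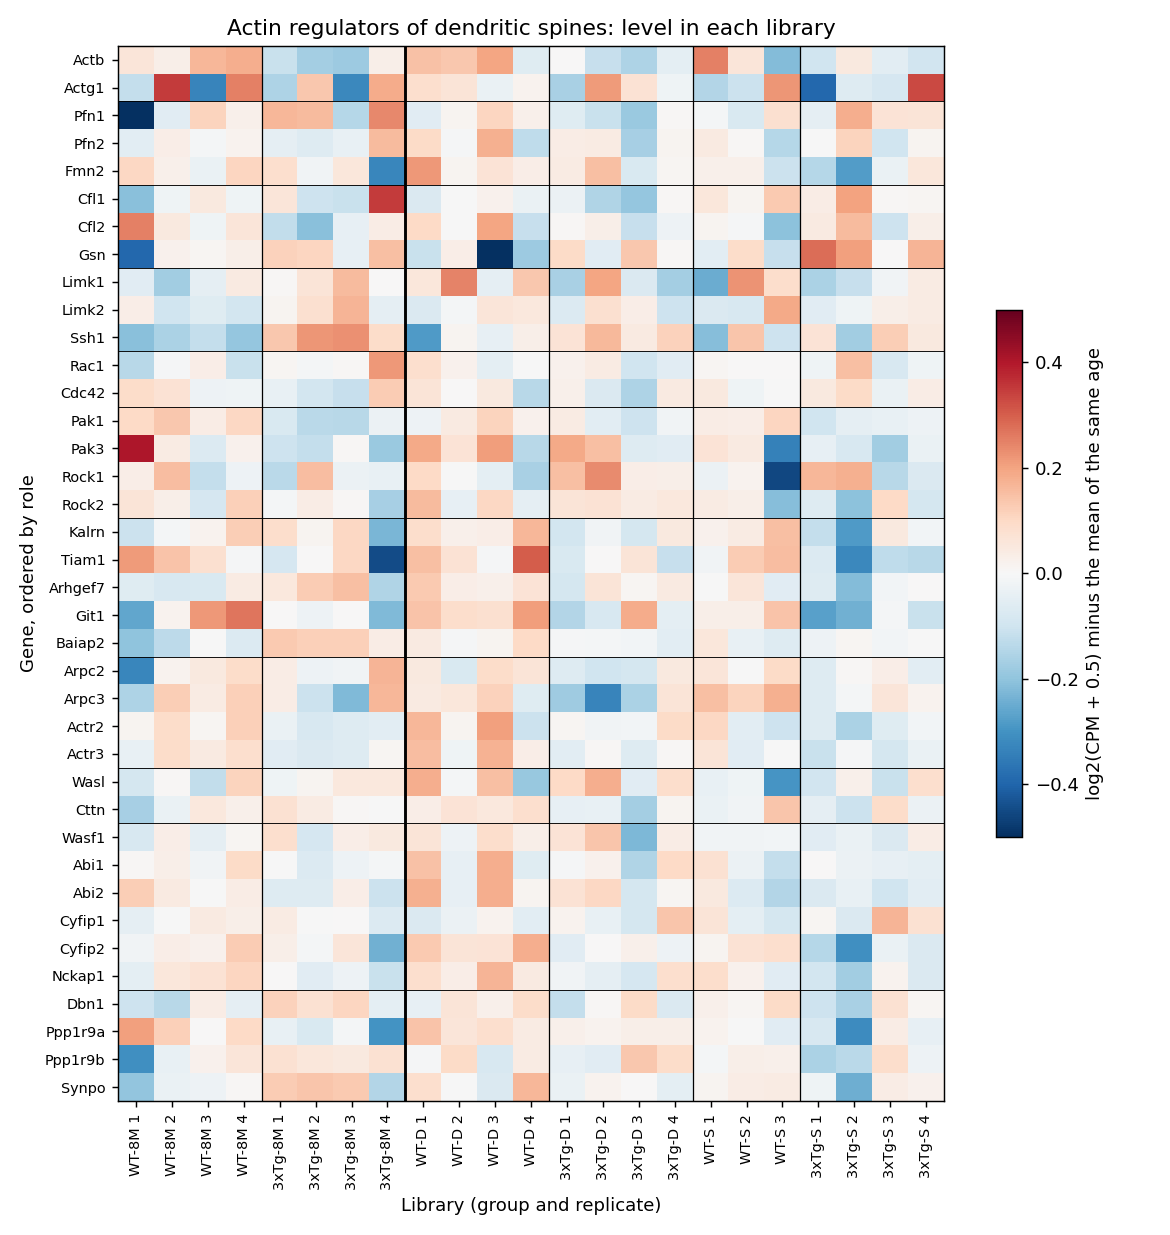
Level of each of the 38 genes (rows, ordered by role) in each of the 23 libraries (columns, by group and replicate), as log2(CPM + 0.5) minus the gene's mean over the libraries of the same age; the heavy line parts the ages, and the colour scale ends at 0.5. In 3xTg-8M replicate 4 and 3xTg-S replicate 2 Tiam1 is dark blue (87.5 and 100.5 CPM), in 3xTg-S replicate 1 only 8 genes lie above their mean, and Actg1 varies with its low counts.

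The genes varied little between mice of a group. Without Actg1, the median coefficient of variation within a group was 5.84%, and by gene the median over groups ran from 3.10% for Baiap2 to 9.98% for Pak3. A pair of libraries stood apart in a way that follows transcript length. The slope of a library's log2 level on log2 transcript length, over all genes kept, was -0.134 in 3xTg-8M replicate 4 and -0.108 in 3xTg-S replicate 2, and between -0.051 and 0.061 in the other 21. Long transcripts were therefore low and short ones high in those 2 libraries. The same libraries had the highest share of counts that name no gene at their age, 30.9% and 27.5%. Their choroid plexus markers summed to 720 and 581 CPM, and those of WT-S replicate 2 to 788 CPM, against 208 to 383 CPM in the other 20 libraries. The part of this tissue in the results was not tested. Averaged over the 38 genes, the log2 deviation from the mean of the age lay between 0.013 and 0.068 in the WT-D libraries, between -0.046 and 0.018 in 3xTg-D, between -0.024 and 0.015 in WT-S and between -0.066 and 0.004 in 3xTg-S. At 8 months it lay between -0.059 and 0.053 in WT-8M, the widest range, and between -0.019 and 0.009 in 3xTg-8M.

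Actb, Cfl1, Cfl2 and Dbn1 stand for main steps of filament turnover and are given in every library whatever their values. Actb, the monomer of the filament, had 1149, 1126.5, 1235.5 and 1250.5 CPM in WT-8M and 1020.2, 979, 971 and 1125 CPM in 3xTg-8M. It had 1186, 1179, 1228 and 1027 CPM in WT-D, against 1074, 989, 964 and 1038 CPM in 3xTg-D. It had 1279, 1119 and 922 CPM in WT-S and 1002, 1108, 1034 and 1004 CPM in 3xTg-S. The 3xTg libraries of 8 months all lay below the WT libraries, by a narrow gap, whereas the groups overlapped at 10 months, and WT-S spread more widely than any other group. Cfl1, the cofilin of most non-muscle cells, had 519.9, 592, 622 and 592 CPM in WT-8M and 627, 559.7, 556 and 767 CPM in 3xTg-8M. It had 573, 601, 611 and 589 CPM in WT-D, then 591, 543, 526 and 605 CPM in 3xTg-D, 627, 609 and 660.2 CPM in WT-S and 617, 692, 605 and 607 CPM in 3xTg-S. The highest value of Cfl1 stood in 3xTg-8M replicate 4 and all groups compared overlapped. Cfl2, the cofilin best known from muscle, had 99.6, 86.3, 82.2 and 87.0 CPM in WT-8M and 76.7, 72.1, 81.2 and 85.6 CPM in 3xTg-8M. It had 86.3, 80.4, 92.3 and 74.2 CPM in WT-D, then 80.7, 82.1, 74.2 and 79.0 CPM in 3xTg-D, 81.2, 80.1 and 69.8 CPM in WT-S and 83.1, 89.9, 74.8 and 82.2 CPM in 3xTg-S. All groups of Cfl2 overlapped at 10 months. Dbn1 encodes drebrin, which stabilises filaments in the spine head. It had 195, 191, 215 and 203 CPM in WT-8M and 227, 222, 226 and 203 CPM in 3xTg-8M. It had 212, 229, 222 and 233 CPM in WT-D, then 201, 219, 234 and 207 CPM in 3xTg-D, 222, 219.7 and 233 CPM in WT-S and 203, 195, 230.1 and 219.95 CPM in 3xTg-S. The Dbn1 ranges of every pair of groups compared overlapped.

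**Figure D2:**
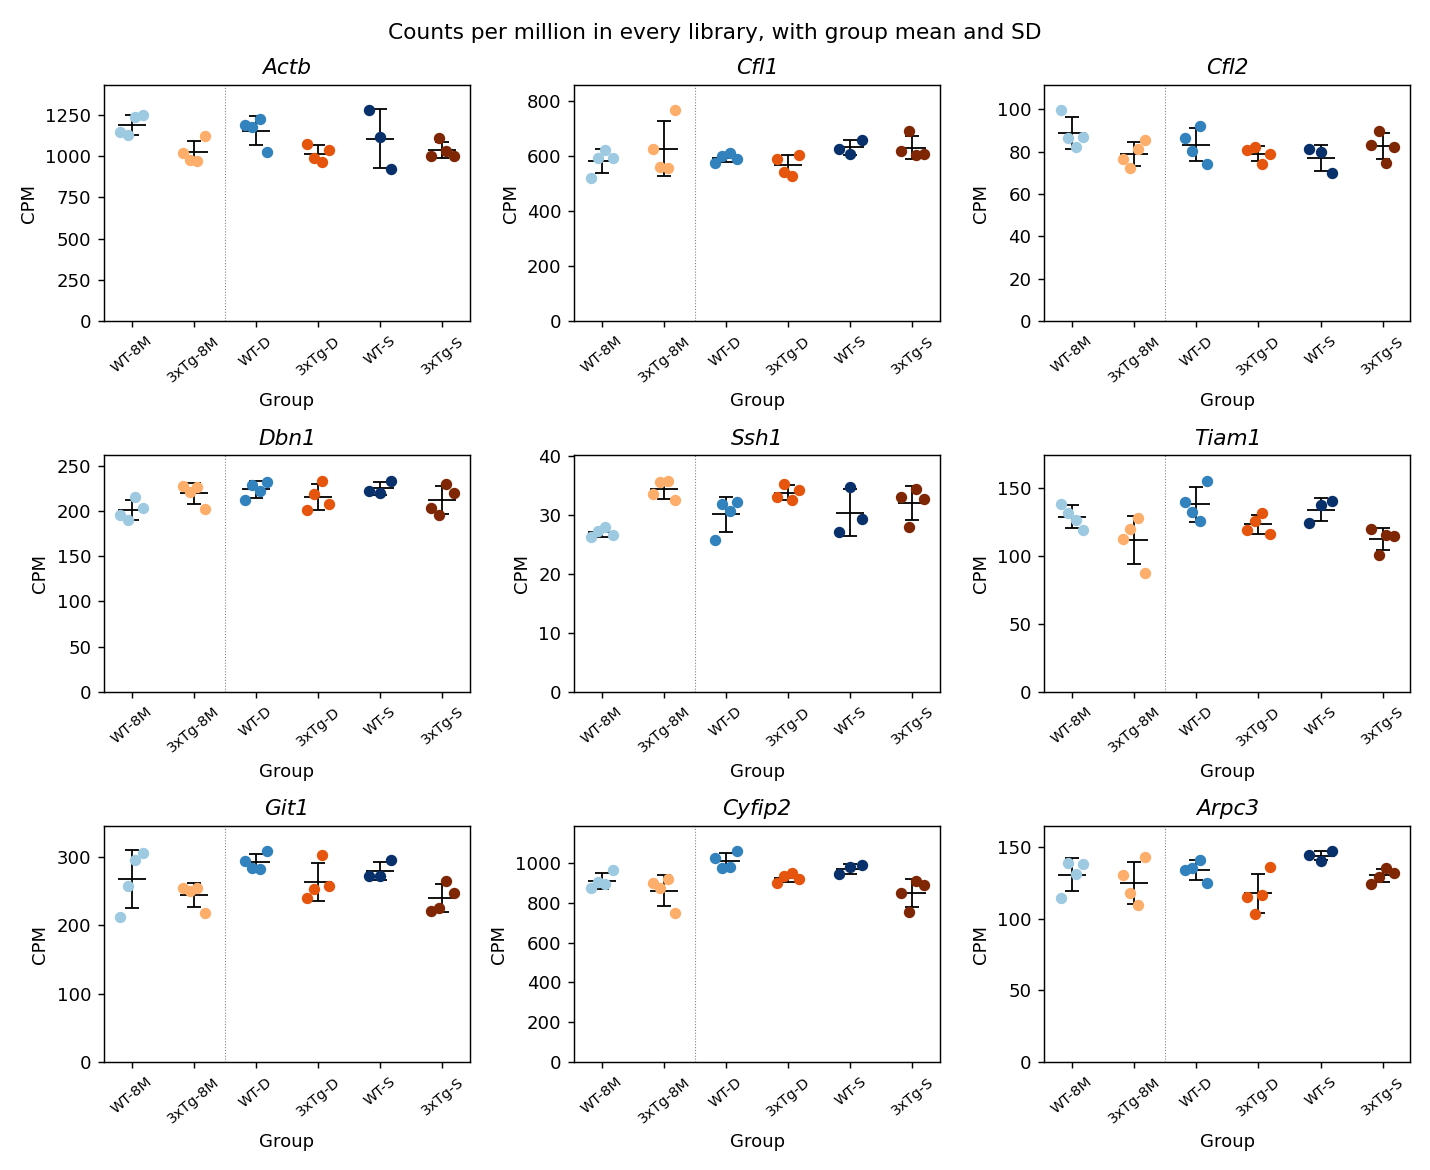
CPM of 9 genes (panels) in every library of the 6 groups; points are libraries, the bar is the group mean and the whiskers are 1 SD, n = 4 except WT-S with n = 3, and the dotted line parts the ages. The 8-month groups of Ssh1 lie apart (26.3 to 28.0 against 32.4 to 35.8 CPM), and at 10 months the 3xTg points of Cyfip2 lie below the WT points of the same treatment, while 1 of Git1 (3xTg-D, 303 CPM) lies among the highest WT points.

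At 8 months, untreated 3xTg mice were compared with WT mice. Of the 38 genes 1 was called, that is, passed a Benjamini-Hochberg adjusted p under 0.05 over all genes tested in edgeR's quasi-likelihood test: Ssh1 was higher in 3xTg. Of all genes tested, 2.58% were called, against 1 of 38 (2.63%) here. At an unadjusted p under 0.01, a looser threshold, 4 genes passed (10.5%, against 6.88% of all genes tested): Ssh1 and Baiap2 with higher levels in 3xTg and Pak1 and Actb with lower levels. The CPM ranges of the groups did not overlap for 6 genes (15.8%, against 11.2% of all genes), the same 4 with Actr2 and Ppp1r9a, both lower in 3xTg. Over the set, 17 genes had positive and 21 negative log2 fold changes, with a median of -0.02 beside 0.01 over all genes tested. With the length and GC trend of each library removed, 21 were positive and the median was 0.03.

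Ssh1 (GRCm38, as for all positions here, chromosome 5, 113937094 to 113993894) encodes the slingshot phosphatase, which reactivates cofilin. It had 26.3, 27.2, 28.0 and 26.5 CPM in WT-8M and 33.5, 35.5, 35.8 and 32.4 CPM in 3xTg-8M. Every 3xTg library lay above every WT library. The log2 fold change was 0.35 ± 0.06 (SE), with an adjusted p of 0.011. The call was lost without 3xTg-8M replicate 2, with an adjusted p of 0.0508, and the log2 fold change ran from 0.33 to 0.37 over the fits that left out 1 library. The kinases with the opposite action on cofilin, Limk1 and Limk2, had log2 fold changes of 0.11 each and were not called. Pak1, a kinase that Rac1 and Cdc42 activate and that in turn acts on LIM kinases, had 397, 407, 380.3 and 398 CPM in WT-8M and 352, 337, 336 and 363 CPM in 3xTg-8M. Its log2 fold change was -0.19 ± 0.05 with an adjusted p of 0.0894. Baiap2 (IRSp53) links Cdc42 and Rac1 to membrane curvature and to WAVE. It had 198, 208, 227 and 216 CPM in WT-8M and 249, 247, 247 and 233 CPM in 3xTg-8M, a log2 fold change of 0.20 ± 0.06 with an adjusted p of 0.104. Actb, with the values above, had the largest negative log2 fold change of the set, -0.22 ± 0.07, with an adjusted p of 0.116. None of these 3 differences passed the adjusted threshold by edgeR, though the groups did not overlap. DESeq2's likelihood ratio test, run as an alternative, called 4 genes of the set, namely Ssh1 and these 3. It called 2.24% of the 32065 genes with any count, a share not comparable with those of genes tested by edgeR. Without 3xTg-8M replicate 4, which has the steep length slope, 3 genes were called: Ssh1, Pak1 and Actb (2.89% of all genes). With the length and GC trend of each library removed, 2 were called, Ssh1 and Actb (3.14% of all genes).

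By role, the 8-month differences went both ways. All 4 GTPase effector kinases and 3 of the 4 Arp2/3 subunits had negative log2 fold changes, with medians of -0.13 and -0.08. Of the 4 filament-binding spine proteins, 3 had positive ones (Dbn1 0.13, Synpo 0.13 and Ppp1r9b 0.12), and Ppp1r9a (neurabin) had -0.21. None of these genes was called. Of 86 tested genes of a wider list of actin regulators outside the set, 1 was higher and 1 lower among those called. Capza1, which encodes a subunit of the protein that caps filament barbed ends, was higher in 3xTg by 1.43 ± 0.14 on the log2 scale (adjusted p = 0.000118, edgeR), and Tmod1, a pointed-end capper, was lower, with a log2 fold change of -0.34 ± 0.07 (adjusted p = 0.0259, edgeR). Of 11 microglia markers, 1 was called higher (Tyrobp), with summed levels of 375 to 444 CPM in WT-8M and 447 to 552 CPM in 3xTg-8M. Of 11 neuron markers none was called, with summed levels of 9978 to 11126 and 9781 to 10332 CPM. The part of cell composition in the differences above was not tested.

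At 10 months, 3xTg-D mice were compared with WT-D mice, both under vehicle. None of the 38 genes was called by edgeR (1.39% of all genes tested were), none by DESeq2, and none reached an unadjusted p under 0.01 by edgeR (4.95% of all genes). At an unadjusted p under 0.05 there were 8, of which 7 were lower in 3xTg, and 13.1% of all genes. With the length and GC trend removed, 4 had an unadjusted p under 0.01, beside 5.71% of all genes: Cfl2, Tiam1, Actr3 and Cyfip2. The direction was lopsided: 31 genes had negative log2 fold changes and 7 positive ones, with a median of -0.06 beside 0.00 over all genes. The largest negative value was that of Arpc3, -0.19 ± 0.07 (adjusted p = 0.302, edgeR), and the largest positive one that of Gsn, 0.23 ± 0.10 (adjusted p = 0.36, edgeR). Actb had -0.19 ± 0.06 with the smallest adjusted p of the set, 0.228 by edgeR. Ranges did not overlap for 5 genes (13.2%, against 7.94% of all genes), with Ssh1 higher in 3xTg-D and Baiap2, Cttn, Cyfip2 and Ppp1r9a lower. The range of Baiap2 in 3xTg lay above WT at 8 months (from 233.04 CPM, against at most 226.7). Here it lay below WT by a very narrow gap (at most 229.29 CPM, against at least 229.4). The difference between the ages was not tested.

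The same strain question was asked with both groups under SCDi. In 3xTg-S against WT-S, which shares no library with the vehicle comparison, none of the 38 genes was called by edgeR or DESeq2 (1.32% of all genes by edgeR), 2 reached an unadjusted p under 0.01 (5.26%, against 4.14% of all genes) and 5 an unadjusted p under 0.05 (10.6% of all genes). The former were Tiam1, at -0.25 ± 0.07 (adjusted p = 0.167, edgeR), which was the largest negative value, and Git1, at -0.22 ± 0.07 (adjusted p = 0.219, edgeR). Git1 missed the unadjusted threshold without 3xTg-S replicate 2 (-0.20), with the length and GC trend removed (-0.20) and with a block for runs of animal numbers. Tiam1 passed it in each of these fits. Without WT-S replicate 2, WT-S replicate 3 or 3xTg-S replicate 4, no gene of the set passed it, Tiam1 included. Gsn had the largest positive value, 0.20 ± 0.08 (adjusted p = 0.411, edgeR). Ranges did not overlap for 5 genes (13.2%, against 10.7% of all genes), all lower in 3xTg-S: Arpc3, Cyfip2, Git1, Pak1 and Tiam1. Between these 2 comparisons, 25 genes had negative log2 fold changes in both and 5 had positive ones in both. Of all genes tested, 32.8% were negative in both and 32.8% positive in both. Adding the 8-month comparison, 16 of the 38 genes were negative in all 3, beside 20% of all genes, and 3 were positive in all 3 (Ssh1, Gsn and Wasl), beside 20.3%. The 16 held Actb, Tiam1, Git1 and Kalrn of the exchange factors, Arpc3, Actr2 and Actr3 of Arp2/3, and Abi1, Abi2, Cyfip2 and Nckap1 of the WAVE complex. Actg1 was among them too, but with 13 to 49 counts a library its direction is not read. Kalrn and Abi1 were positive at 8 months, at 0.08 and 0.04, once the length and GC trend was removed. Actg1 was then positive under vehicle, at 0.005. These counts describe directions, most of them of differences that did not pass the test.

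Because the 2 comparisons pointed the same way, the strains were also compared over all 15 libraries of 10 months with treatment as a covariate, a fit chosen after the pairwise results were seen. Of the 38 genes 4 were called, all lower in 3xTg (10.5%, against 6.53% of all genes tested): Tiam1, Cyfip2, Git1 and Arpc3. By unadjusted values 6 passed a p under 0.01 (15.8%, against 9.81% of all genes), the others being Kalrn, with a lower level, and Gsn, with a higher one. Without 3xTg-S replicate 2, which has the steep length slope, 3 were called (Tiam1, Cyfip2 and Arpc3), beside 6.81% of all genes. Leaving out 3xTg-D replicate 1 or 3xTg-S replicate 1 left Tiam1 alone, beside 5.42% and 5.2% of all genes. Removing the length and GC trend gave 6 calls, Gsn, Kalrn and Actr3 being added and Arpc3 lost. The share of all genes called rose as well, to 8.07%. In all, 32 genes had negative log2 fold changes and the median was -0.04, beside 0.00 over all genes.

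Tiam1 (chromosome 16, 89787111 to 90143769) encodes an exchange factor that loads Rac1 with GTP downstream of NMDA receptors. It had 139.8, 132.5, 125.5 and 156 CPM in WT-D, against 119.5, 126, 132 and 116 CPM in 3xTg-D. It had 124, 137.5 and 140.4 CPM in WT-S and 120.2, 100.5, 115 and 114 CPM in 3xTg-S. The strains overlapped under vehicle and did not under SCDi. Over both treatments its log2 fold change was -0.20 ± 0.05 with an adjusted p of 0.0177, the smallest of the set, and it was called in every alternative fit of this comparison. At 8 months its log2 fold change was -0.20 ± 0.10, with an adjusted p of 0.335.

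Git1 (chromosome 11, 77493562 to 77507786) encodes a scaffold that brings the exchange factor Arhgef7 (beta-PIX) to the synapse. It had 294, 284, 282 and 308 CPM in WT-D, against 241, 252, 303 and 258 CPM in 3xTg-D. It had 272, 272 and 295 CPM in WT-S and 221, 226, 265 and 247 CPM in 3xTg-S. Of the 3xTg libraries of 10 months, 3xTg-D replicate 3 alone lay within the WT range. The log2 fold change over both treatments was -0.18 ± 0.05 with an adjusted p of 0.034, and 11 of the 15 fits that left out 1 library lost the call, with adjusted p-values up to 0.0899. The exceptions left out WT-D replicate 2 or 3, 3xTg-D replicate 3 or 3xTg-S replicate 3. Kalrn (kalirin), an exchange factor that activates Rac1 in mature spines, had 611, 586, 589.6 and 646 CPM in WT-D, against 539.7, 569, 541 and 595 CPM in 3xTg-D. In the SCDi groups it had 584, 592 and 639 CPM in WT-S and 530.0, 473, 596 and 571 CPM in 3xTg-S. The groups overlapped, and its log2 fold change of -0.14 ± 0.05 had an adjusted p of 0.0928. All 5 exchange factors and scaffolds had negative values, the other two being Arhgef7 and Baiap2, with a median of -0.14.

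Cyfip2 (chromosome 11, 46193850 to 46312859) encodes a subunit through which Rac1 binds the WAVE regulatory complex. It had 1021, 975, 978 and 1058 CPM in WT-D, against 897, 933, 950.3 and 917 CPM in 3xTg-D. It had 942, 980.1 and 989.7 CPM in WT-S and 846, 753.5, 911 and 887 CPM in 3xTg-S. The strains did not overlap under either treatment. Its log2 fold change over both treatments was -0.16 ± 0.04 with an adjusted p of 0.0249. The call was lost without WT-D replicate 4, 3xTg-D replicate 1, WT-S replicate 2 or 3, or 3xTg-S replicate 1, with adjusted p-values from 0.0514 to 0.0563. The paralog Cyfip1 had a positive value, 0.06, and Nckap1, the partner subunit, had -0.10, and neither was called. Of the 6 WAVE subunits 5 had negative values.

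Arpc3 (chromosome 5, 122391878 to 122414184) encodes a subunit of the Arp2/3 complex. It had 134, 135, 141 and 125 CPM in WT-D, against 115, 103, 116 and 136 CPM in 3xTg-D. It had 144, 140.4 and 147 CPM in WT-S and 124, 129, 135 and 132 CPM in 3xTg-S. The strains overlapped under vehicle through 3xTg-D replicate 4 and did not overlap under SCDi. The log2 fold change was -0.17 ± 0.05 with an adjusted p of 0.0357, and 10 of the 15 fits that left out 1 library lost the call. The exceptions left out WT-D replicate 4, 3xTg-D replicate 4, WT-S replicate 2, or 3xTg-S replicate 2 or 3. With the length and GC trend removed it had an adjusted p of 0.0553, and with the block for runs of animal numbers 0.0512, so that neither fit called it. The other 3 subunits in the set had negative values too, with a median of -0.08 over the 4.

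Gsn (gelsolin), which severs and caps filaments, had positive log2 fold changes in every comparison of the strains. It had 38.3, 42.4, 29.1 and 36.4 CPM in WT-D, against 44.2, 39.8, 45.5 and 41.6 CPM in 3xTg-D. It had 39.9, 44.1 and 38.1 CPM in WT-S and 50.3, 47.8, 41.5 and 46.7 CPM in 3xTg-S. The groups overlapped, and the log2 fold change of 0.21 ± 0.07 had an adjusted p of 0.0673. It was called with the length and GC trend removed (adjusted p = 0.0375, edgeR), with no filter on low counts and by DESeq2. Gelsolin is abundant in oligodendrocytes, whose summed marker level was 4498 to 5743 CPM in WT-D, then 3971 to 6298 in 3xTg-D, 4215 to 5344 in WT-S and 6255 to 7051 in 3xTg-S. Of these 10 markers, 1 was called higher over both treatments (Mobp). The part of oligodendrocyte RNA in the level of Gsn was not tested.

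Cell type markers moved with strain at 10 months as well. The 11 neuron markers summed to 10732 to 11206 CPM in WT-D, against 9773 to 10592 in 3xTg-D, which did not overlap, and to 10261 to 11486 in WT-S and 9398 to 10669 in 3xTg-S. Of these, 1 was called lower over both treatments (Nefm), and the median log2 fold change of the list was -0.08, beside -0.04 over the actin regulators. Of 11 microglia markers 7 were called higher over both treatments, and they summed to 388 to 449.7 CPM in WT-D, against 400.3 to 621 in 3xTg-D. Of 8 markers of hippocampal subfields 3 were called lower (C1ql2, Wfs1 and Prox1). No neuron, microglia or oligodendrocyte marker stood at 0 in any library. Whether the lower level of the 4 genes above belongs to a smaller share of neuronal RNA was not tested.

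**Figure D3:**
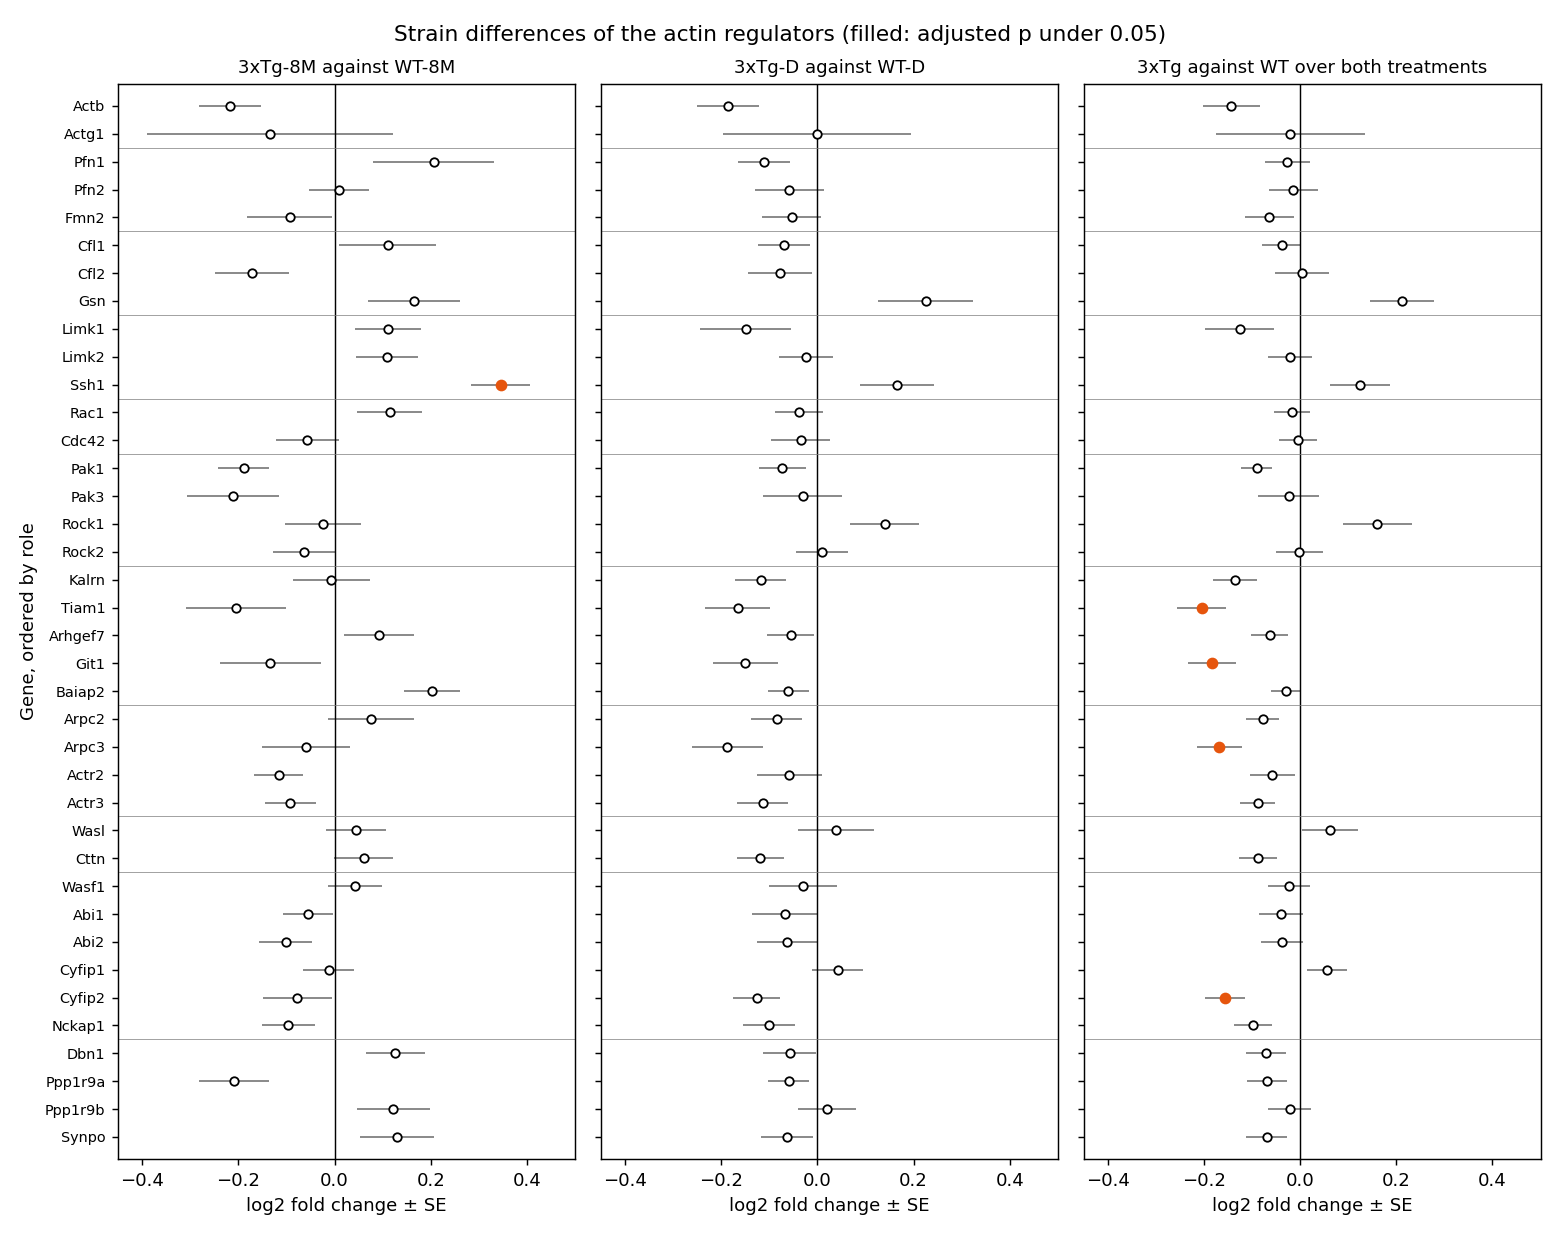
Log2 fold change of 3xTg against WT for the 38 genes (rows, grouped by role) at 8 months, at 10 months under vehicle, and at 10 months over both treatments; whiskers are 1 SE, and filled points have an adjusted p under 0.05. A single point is filled at 8 months (Ssh1, 0.35), none under vehicle, and 4 over both treatments, from Tiam1 at -0.20 to Cyfip2 at -0.16.

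Further actin regulators outside the set were taken from the wider list. Under vehicle, Capza1 was higher in 3xTg-D, by 1.69 ± 0.14 on the log2 scale (adjusted p = 3.8e-05, edgeR), and Actr3b, a neuronal form of an Arp2/3 subunit, was lower, at -0.24 ± 0.05 (adjusted p = 0.0406, edgeR). Over both treatments, 5 of 86 were called higher and 4 lower. Higher were Capza1, at 1.45 ± 0.17, the filament bundler Lcp1, at 0.44 ± 0.10, the exchange factor Vav2, at 0.36 ± 0.09, the WAVE subunit of blood cells and microglia Nckap1l, at 0.35 ± 0.10, and Eps8, a capper and bundler, at 0.18 ± 0.04. Lower were Tmod1, at -0.32 ± 0.07, the membrane-linked actin binder Marcksl1, at -0.29 ± 0.07, the Rac activator Dock3, at -0.17 ± 0.04, and the GTPase-activating protein Arhgap32, at -0.16 ± 0.05. In 3xTg-S against WT-S none was called by edgeR, and at an unadjusted p under 0.05 there were 6 higher and 8 lower.

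The inhibitor was compared with its vehicle within each strain and over both. In 3xTg-S against 3xTg-D, none of the 38 genes was called by edgeR or DESeq2 and none reached an unadjusted p under 0.01 by either. By edgeR no gene of all those tested was called (0%), and 2.52% reached the unadjusted threshold. DESeq2 called 15 of the 30702 genes with any count, and gave 3 of the 38 no adjusted p. At an unadjusted p under 0.05 there were 3 of the 38, beside 11.2% of all genes: Pfn1, at 0.16 ± 0.06, the largest positive value, Cfl1, at 0.15 ± 0.06, and Tiam1, at -0.13 ± 0.06, with adjusted p-values of 0.397, 0.423 and 0.446 by edgeR. Without 3xTg-S replicate 2 these values were 0.11, 0.10 and -0.09, with unadjusted p-values of 0.0633, 0.0873 and 0.127 by edgeR, and none of the 3 passed. Pak3 had the largest negative value, -0.14 ± 0.07. No gene of the set had groups that did not overlap, against 6.99% of all genes. Here too most directions were negative: 24 genes had negative log2 fold changes and 14 positive ones. The median was -0.034, beside -0.002 over all genes. In WT-S against WT-D, none was called by either tool, none reached an unadjusted p under 0.01 or under 0.05, and of all genes tested 0% were called and 0.375% had an unadjusted p under 0.01. The extremes were Gsn, at 0.16 ± 0.12 (adjusted p = 0.981, edgeR), and Wasl, which encodes N-WASP, at -0.15 ± 0.10 (adjusted p = 0.981, edgeR). The ranges of 1 gene, Ppp1r9a, did not overlap (2.63%, against 4.9% of all genes). In this comparison 27 genes had negative log2 fold changes and 11 positive ones, with a median of -0.052 beside 0.002 over all genes. The standard errors of the set had a median of 0.06 in either comparison, so that differences of about that size in log2 were within the error. Larger differences could go uncalled too, and the size that the test could detect was not estimated.

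Over both strains, with strain as a covariate and all 15 libraries, edgeR called no gene (0% of all genes). DESeq2 called 43 of the 32968 genes with any count but none of the 38, of which 1 had no adjusted p. Of the 38 genes 1 reached an unadjusted p under 0.01 (2.63%, against 4% of all genes) and 9 an unadjusted p under 0.05 (13.6% of all genes). Cfl1 was the former, at 0.12 ± 0.04 with an adjusted p of 0.241 by edgeR. It missed the unadjusted threshold without 3xTg-S replicate 2 (0.10), with the length and GC trend removed (0.09) and with the block for runs of animal numbers. Gsn had the largest positive value, 0.14 ± 0.07, and Pak3 the largest negative one, -0.15 ± 0.06 (adjusted p = 0.336, edgeR). Negative log2 fold changes stood in 28 genes and positive ones in 10, with a median of -0.038 beside 0.0004 over all genes. A lean to negative values was therefore not limited to the comparisons of the strains. The interaction of strain and inhibitor, which asks whether the inhibitor's difference differed between strains, called no gene of the set or of all genes by edgeR or DESeq2 (0%), and none of the 38 reached an unadjusted p under 0.01, against 0.351% of all genes, or under 0.05. Its extremes were Pfn1, at 0.18 ± 0.09, and Ssh1, at -0.09 ± 0.13, with adjusted p-values of 1 by edgeR. The standard errors of the interaction had a median of 0.09. Of 86 genes of the wider list none was called in any of these comparisons by edgeR. At an unadjusted p under 0.05 there were 5 higher and 10 lower in 3xTg, none in WT, 3 higher and 14 lower over both strains, and 1 in each direction for the interaction. Over both strains 5 of them had an unadjusted p under 0.01, all with lower levels under SCDi: Myo5a, Enah, Cttnbp2, Tmod2 and Spire1.

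The inhibitor's log2 fold changes followed transcript length. In 3xTg-S against 3xTg-D, of the 8 genes with transcripts under 2500 nt, 7 had positive values, with a median of 0.05. Of the 10 with transcripts over 6000 nt, 9 had negative values, with a median of -0.12. Across the 38 genes Spearman's rho between log2 fold change and length was -0.68, and it was -0.355 in WT-S against WT-D and -0.63 over both strains. These are correlations across genes, which share libraries and are no independent replicates. Without 3xTg-S replicate 2, the library with the steep length slope, rho in 3xTg-S against 3xTg-D was -0.51. With the length and GC trend of each library removed, rho was -0.02, and Pak3 then had 0.02 in place of -0.14. That step fits length over all genes and takes the fit out, so that the loss of the correlation follows largely from how it was built. Among the short transcripts with positive values were those of Pfn1, Arpc3 and Cfl1, and among the long ones with negative values those of Tiam1, Fmn2, Cyfip2, Rock2, Ppp1r9a and Pak3. What part of the pattern belongs to library preparation was not tested. The strain differences over both treatments had a rho of 0.04 with length.

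**Figure D4:**
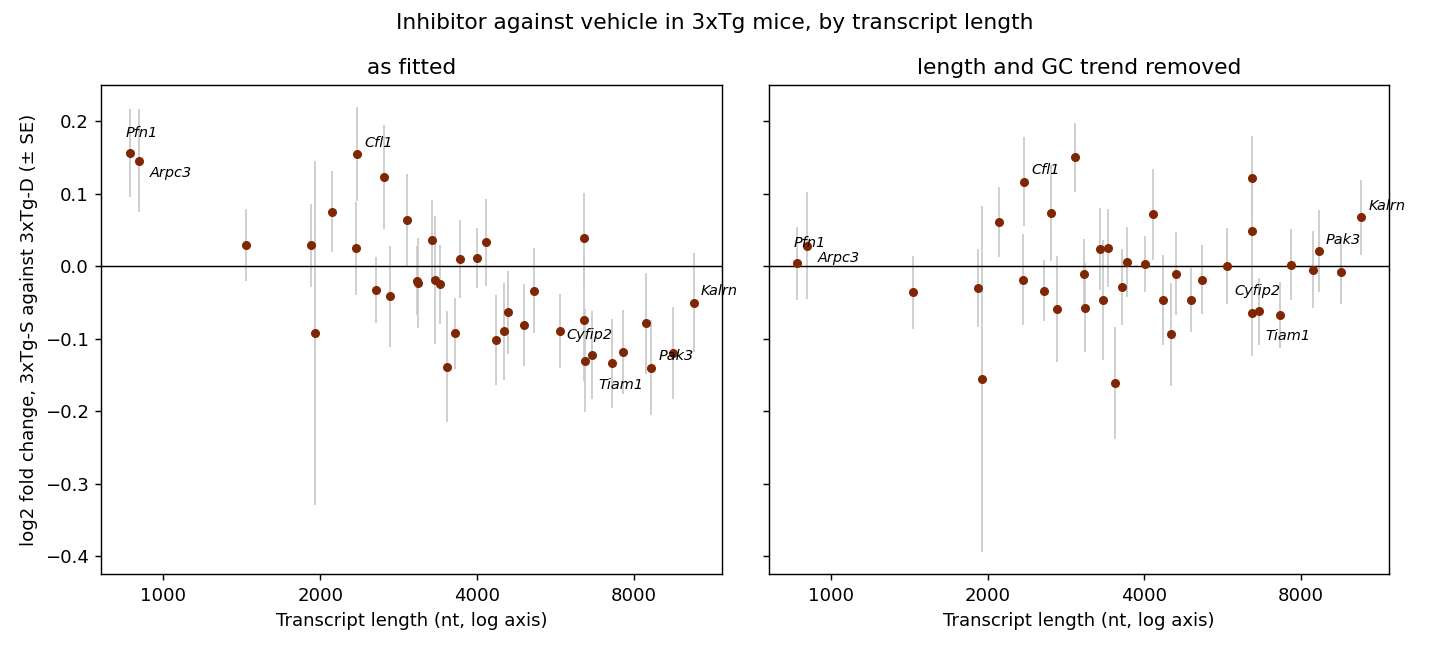
Log2 fold change of 3xTg-S against 3xTg-D for each of the 38 genes by transcript length (log axis), as fitted (left) and with each library's length and GC trend removed (right); whiskers are 1 SE. On the left the points descend from Pfn1 at 0.16 to Pak3 at -0.14, with a rho of -0.68. On the right rho is -0.02, which follows largely from the removal of the trend.

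Treated 3xTg mice were last compared with WT mice under vehicle, which sets levels under the inhibitor beside those of the control strain. It shares the WT-D libraries with 3xTg-D against WT-D. A single gene was called (1 of 38, 2.63%, against 2.29% of all genes). It was Git1, at -0.28 ± 0.06 with an adjusted p of 0.0372. There were 4 at an unadjusted p under 0.01 (10.5%, against 6.59% of all genes): Git1, Tiam1, at -0.29 ± 0.07 (adjusted p = 0.0593, edgeR), Cyfip2, at -0.24 ± 0.07 (adjusted p = 0.0764, edgeR), and Gsn, at 0.35 ± 0.10 (adjusted p = 0.101, edgeR). In the vehicle comparison the same genes had log2 fold changes of -0.15, -0.17, -0.13 and 0.23. Ranges did not overlap for 7 genes (18.4%, against 10.4% of all genes), all lower in 3xTg-S: Arhgef7, Cyfip2, Git1, Nckap1, Pak1, Ppp1r9a and Tiam1. The median of the 38 was -0.08, beside 0.00 over all genes. Arpc3, whose transcript of 899 nt is among the shortest, had -0.04 here and -0.19 under vehicle, and -0.14 and -0.16 with the length and GC trend removed. Leaving out 3xTg-S replicate 2 ended the call of Git1 (adjusted p = 0.0736), as did leaving out any other library but 3xTg-S replicate 3. DESeq2's likelihood ratio test called 3 genes (Tiam1, Git1 and Cyfip2), beside 1.9% of the 30873 genes with any count. In this comparison 4 of 10 oligodendrocyte markers and 6 of 11 microglia markers were called higher, whose part in these values was not tested. Of the wider list Capza1 was higher, at 1.63 ± 0.13, and Arhgap32 and Myo5a, the motor that carries cargo along spine actin, were lower, at -0.27 ± 0.06 and -0.26 ± 0.06.

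Reads from near-identical copies and from overlapping genes limit single values. Whether strand was used in counting is not stated. Of the exonic bases of Rac1, 2309 of 4496 also lie in exons of Daglb on the other strand, and Cyfip1 shares 1316 of 11941 with Nipa2, Cfl1 shares 468 of 2844 with Snx32, Abi1 shares 194 of 4032 with Pdss1 and Cfl2 shares 81 of 3266 with 1700081N11Rik. Reads of these pairs cannot be told apart without strand. Ssh1, Tiam1, Git1, Cyfip2 and Arpc3 share no exonic base with another gene.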

How the data were processed

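Gene counts of 23 hippocampal libraries, 1 per mouse, were deposited by the authors as raw counts, with no normalization. Per the methods and the submitters' processing notes, single-end reads with UMI adapters were trimmed with Trimmomatic 0.35 and aligned to GRCm38 with STAR 2.5.1b. Whether strand was used, and whether UMIs were collapsed, is not given in the sources used here. Rows that name no gene were left out (24.7% to 30.9% of a library's total). The 38 genes and the lists of other genes were chosen with earlier results of these data known. Counts were tested with edgeR 4.0.16 (quasi-likelihood test, TMM, low counts filtered) in R 4.3.3, each pair of groups on its own, and strain, inhibitor and their interaction over the 15 libraries of 10 months. p-values were adjusted over all genes tested. The libraries are separate mice, so that p-values measure the spread between mice. Of the 38 genes, every one called, every one at an unadjusted p under 0.01 and the 2 extremes of each comparison were named, with Actb, Cfl1, Cfl2 and Dbn1 throughout. Alternatives were DESeq2 1.42.0, its size factors, no filter, an offset for transcript length and GC (splines with 5 degrees of freedom, Gencode M21), each library left out, and a block for runs of animal numbers. CPM were scaled within an age. The steps were tested on simulated data. Promoters are RefSeq's.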

Additional observations from a re-analysis of the deposited data

Results flagged for a closer look

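In groups of 4 libraries, single libraries whose gap to the nearest other exceeded Dixon's critical value were marked for each of the 38 genes and for their mean level. This gave 9 of 195 tests, and chance alone marks about 1 in 20. WT-S, with 3 libraries, was not tested. In 3xTg-8M replicate 4 there were 5. Pfn2 had 694.56 CPM there, against 595 to 605 in the other 3 libraries, and Rac1 had 385.61 CPM, against 329 to 334. The other three were low: Git1 at 218 CPM against 249 to 254, Baiap2 at 233.04 CPM against 247 to 249, and Synpo at 137.54 CPM against 166 to 168. Pfn2 had 550.95 CPM in 3xTg-D replicate 3, against 625 to 636. Baiap2 had 222.26 CPM in 3xTg-D replicate 4, against 228 to 229. Cfl1 had 691.83 CPM in 3xTg-S replicate 2, against 605 to 617. Gsn had 30.927 CPM in WT-8M replicate 1, against 41.0 to 41.5.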

How the results depend on the processing

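Genes of the set called stayed at 0 in 3xTg-D against WT-D, in both comparisons of SCDi with vehicle within a strain and in the interaction, under every alternative run. At 8 months, where 1 was called, DESeq2's likelihood ratio test called 4 and an unadjusted p under 0.01 gave 4. The removed length and GC trend gave 2, and leaving out 1 library gave 0 to 3. The shares of all genes were 2.24%, 6.88%, 3.14% and 1.46% to 2.89%, in that order. Shares by the likelihood ratio test or with no filter, here and below, are of all genes with any count. They are not comparable with the others. In 3xTg-S against WT-D, with 1 called, there were 4 at an unadjusted p under 0.01 (6.59% of all genes). There were 4 with no filter on low counts (3.68%) and 4 with the trend removed (2.78%). The likelihood ratio test gave 3 (1.9%), the block for runs of animal numbers 3 (2.29%) and all 15 libraries in one fit 3 (2.65%). With a library left out there were 0 to 1 (0.985% to 2.15%). In 3xTg-S against WT-S, with 0 called, there were 2 at an unadjusted p under 0.01 (4.14%) and 1 with no filter (Tiam1, beside 2.41%). SCDi against vehicle over both strains gave 1 at an unadjusted p under 0.01 (4% of all genes). For the strains over both treatments, with 4 called, leaving out 1 library gave 1 to 6 (5.2% to 6.81% of all genes). The removed trend gave 6 (8.07%), no filter 5 (4.71%), the likelihood ratio test 5 (3.89%) and the block 3 (6.39%). Tiam1 was called throughout. The median log2 fold change in WT-S against WT-D was -0.052 and ran from -0.057 to -0.025 with a library left out. The median at 8 months was -0.018, and 0.028 with the trend removed. Among the differences named as extremes, called or at an unadjusted p under 0.05, the sign turned for Pak3 in 3xTg-S against 3xTg-D with the trend removed (0.02101) and for Ssh1 in the interaction, which ran from -0.168 to 0.0156 with a library left out and was positive without WT-S replicate 2. Where not evident from how an alternative was built, the cause was not tested. Genes with few counts (Actg1) are limited by depth. The labels give no replicate numbers that groups share, so that the runs of animal numbers at 10 months were the only block tried.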
